A study of Mus musculus with 80 samples.

Results

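The 40 male left ventricle libraries of this series were compared by their titles: the 20 with title numbers 21 to 40 (called the second run of titles below) against the 20 with title numbers 1 to 20 (the first run). These 40 are the male part of 80 libraries. The labels do not say what separates the runs. All mice were C57Bl/6J, and no label gives an age, a time after exposure or an hour of tissue collection. Each run held 5 libraries of each of 4 conditions: sham (normal diet, no irradiation, 0 cGy), Western diet (0 cGy), a mixed radiation field on the normal diet (50 cGy, called mix) and gamma radiation on the normal diet (100 cGy). Doses are in cGy (centigray). The condition was a term in the fit, so the run difference is the average over conditions. Nothing in the labels says that libraries came from separate mice. The p-values therefore rest on the spread among these libraries, some of which may be technical.

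The left ventricle is mostly cardiac muscle by mass, with fibroblasts, endothelial cells and smooth muscle between the fibres. SR proteins and hnRNPs are RNA-binding proteins that choose exons, and the CLK and SRPK kinases phosphorylate SR proteins. Many genes of this group carry introns that stay in the transcript in the nucleus and lower the yield of mature mRNA. The heart also runs a circadian clock, in which BMAL1, CLOCK and NPAS2 drive genes such as Dbp and the Per repressors, so that output genes rise and fall over the day. Myl7, Myl4 and Sln belong to atrial muscle and are low in the adult ventricle, which makes them a marker of atrial tissue in a dissected ventricle.

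Depth was similar on both sides, with 13484776 to 19304936 counts per library. The label of sex held in all 40 libraries, with Xist at 0.707 CPM (the count relative to its library total) or less and the Y-linked Ddx3y at 33.1 CPM or more. All other CPM values below use library totals scaled by the TMM factors of edgeR. The ventricular lists were present throughout: Myl2, the ventricular myosin light chain, ran from 3639 to 8307 CPM in the first run and from 4255 to 9459.7 in the second.

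Within the first run, 12 libraries stood apart from the other 8 and from all 20 of the second run. They held 177 to 392 CPM of mt-Rnr2, the large ribosomal RNA of mitochondria (chromosome M, 1094 to 2675 on GRCm39), against 4346 to 5799 in the other 8 and 2791 to 7199 in the second run. These 12 were sham replicate 5, Western replicates 1 to 5, mix replicates 1, 3 and 4, and gamma replicates 1, 2 and 5. Rn7sk, the short nuclear RNA that holds back the elongation factor P-TEFb (chromosome 9, 78082585 to 78082915), was at 30.1 to 258 CPM in the 12 and at 1.9 to 15.5 CPM in the other 8. In the second run it lay between 5.1 and 19.9 CPM. Rn18s-rs5, a copy of the 18S ribosomal RNA (chromosome 17, 40157244 to 40159092), was at 1549.6 to 4254 CPM in the 12, 5629 to 21924 in the other 8 and 11459.6 to 32897 in the second run. The first principal component of all 40 libraries held 20.3% of the variance, and all 12 had positive scores on it while the other 28 had negative ones. Since the 12 make up most of the first run, the main results below are given with all 40 libraries and again without the 12. The Western condition then has no first-run library and drops out on both sides, which leaves 8 libraries against 15. The share of counts on Rn18s-rs5 was 0.84 ± 0.79% in the first run and 1.95 ± 0.61% in the second (permutation test, adjusted p = 3e-04). Without the 12 neither this share (adjusted p = 0.396) nor the number of genes with a count (adjusted p = 0.324) passed the exact permutation test.

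Libraries were selected by poly-A tail, per the labels, and 4 of the RNAs with large differences between the runs are ribosomal RNAs of the cytosol and mitochondria and Rn7sk, none of which is a classical polyadenylated mRNA. For that reason the 30 bases around the longest run of A in each are shown, read from the GENCODE vM39 transcripts, 5′ to 3′, with the A run in capitals. They lie at chr9:78082674-78082703 (minus strand), chrM:692-721, chrM:1476-1505 and chr17:40158046-40158075 (plus strand) on GRCm39.
Rn7sk: ctgctagaacctccAAAcaagctctcaagg
mt-Rnr1: ttcagcaaaccctAAAAAggtattaaagta
mt-Rnr2: tttaaacttgctAAAAAAAcaacaaaatca
Rn18s-rs5: gcgtttactttgAAAAAAttagagtgttca
The longest run of A was 3 bases in Rn7sk (331 bases), 5 in mt-Rnr1 (955), 7 in mt-Rnr2 (1582) and 6 in Rn18s-rs5 (1849). What part the selection step had in the difference was not tested.

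**Figure D1:**
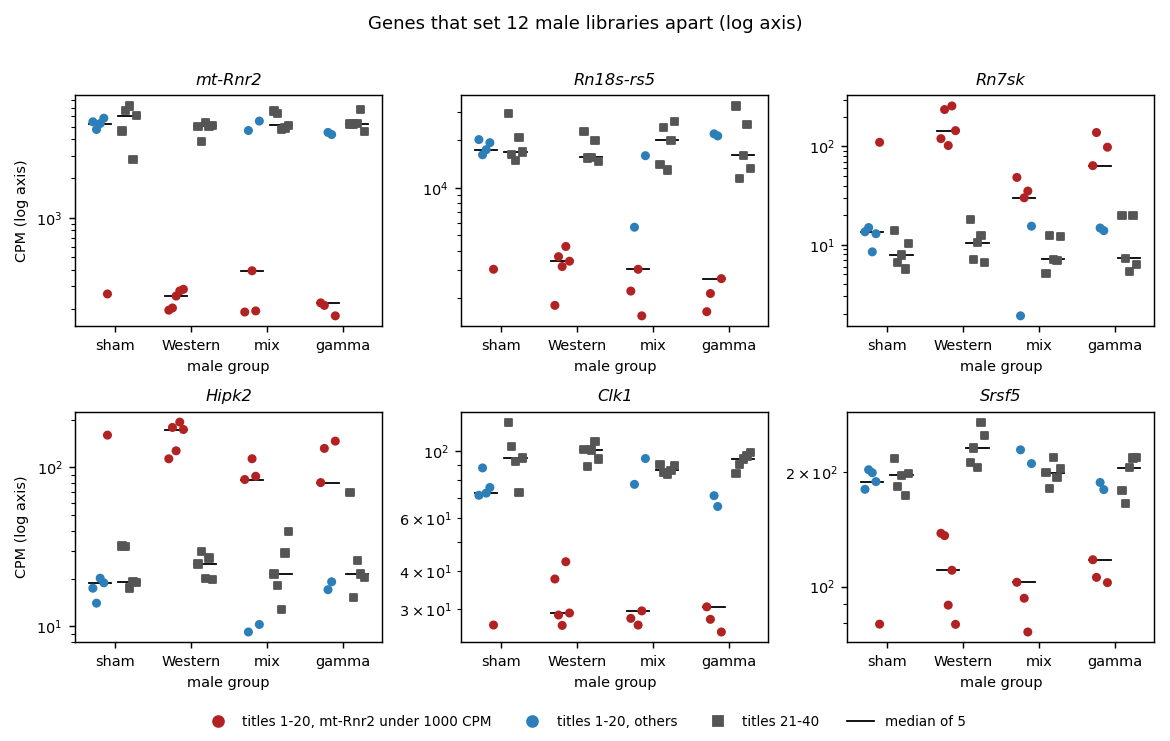
Each point is 1 male library, in CPM on a log axis, for 6 genes in the 4 conditions; circles are title numbers 1 to 20, squares 21 to 40, and bars are medians of 5. The 12 libraries drawn in red sit at 177 to 392 CPM of mt-Rnr2, and the same 12 are high in Rn7sk and Hipk2 and low in Clk1 and Srsf5.

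With all 40 libraries, 4365 of 15848 genes tested were called at a Benjamini-Hochberg adjusted p under 0.05 by edgeR's quasi-likelihood test, or 27.5%. Of these, 2171 were higher in the second run (13.7% of genes tested) and 2194 lower (13.8%). The median log2 difference over all genes was -0.02. Without the 12 libraries 927 of 16471 genes were higher (5.63%) and 552 lower (3.35%). Of 4352 genes called with all 40 and tested both ways, 770 were also called without the 12 in the same direction, which is 17.7% of the first list and 52.7% of the 1461 genes of the second. Another 31 were called in opposite directions.

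Called genes above a mean level of 5 CPM were ranked, leaving aside predicted genes and pseudogenes. The 4 largest rises with all 40 libraries were RNAs that marked the 12. mt-Rnr2 was 1.78 ± 0.46 higher (log2 ± SE, adjusted p = 0.00347 by edgeR), mt-Rnr1 1.58 ± 0.45 and Rn18s-rs5 1.39 ± 0.3. Lars2, the mitochondrial leucyl-tRNA synthetase, ran from 121 to 252 CPM in the 12, from 613 to 2019 in the other 8 and from 885 to 2682 in the second run, and was 1.65 ± 0.34 higher. None of these 4 passed the test without the 12, where the values were 0.13, -0.02, 0.22 and 0.32. The 12 were set apart by mt-Rnr2 itself, so its loss follows from the choice of libraries. Gimap3 was the next largest rise, at 1.38. It had 0.52 (adjusted p = 0.0541 by edgeR) without gamma replicate 10 of the second run. The largest fall was Rn7sk, at -2.48 ± 0.35 (adjusted p = 1.9e-06), which became -0.3 ± 0.27 (adjusted p = 0.54).

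Other large differences turned round when the 12 were left out. Hipk2, a nuclear kinase (chromosome 6, 38667714 to 38853443), lay at 80.3 to 193 CPM in the 12, 9.24 to 20.1 in the other 8 and 12.8 to 69.6 in the second run. It was lower with all 40 (-1.58 ± 0.32) and 0.75 ± 0.23 higher without the 12 (adjusted p = 0.0433). Zbtb37, a zinc finger gene, went from -0.81 ± 0.25 to 0.93 (adjusted p = 0.00254). Ppara, the receptor that drives fatty acid oxidation genes, showed 3 levels: 32.9 to 48.7 CPM in the 12, 4.99 to 14.4 in the other 8 and 9.8 to 35.4 in the second run. Its difference was -0.32 ± 0.24 (adjusted p = 0.342) with all 40 and 1.38 ± 0.19 (adjusted p = 0.000348) without the 12. For these 3 genes all of the 12 lay above the median of the second run and all of the other 8 below it.

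Genes called in both fits included Ogt and many members of the splicing lists. Ogt, the enzyme that adds O-linked GlcNAc to nuclear and cytosolic proteins (chromosome X, 100680557 to 100727963), was the 1 gene of 15848 (0.00631%) whose 20 second-run values all lay above its 20 first-run values. It ran from 51.5 to 85.9 CPM with a median of 70.4 in the first run, and from 86 to 127 with a median of 103 in the second. The difference was 0.56 ± 0.05 with all 40 (adjusted p = 1.86e-09) and 0.47 without the 12 (adjusted p = 0.000531). Ogt was named after its values were seen.

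The splicing lists held 111 tested genes, of which 54 were higher in the second run and 8 lower, beside 13.7% and 13.8% of all genes. Without the 12 the same lists gave 22 higher and 4 lower, beside 5.63% and 3.35%. The lists differed among themselves. SR proteins had 12 of 15 members higher and none lower, with a median log2 difference of 0.43, and 4 of 15 higher with a median of 0.12 without the 12. SR protein kinases had 6 of 7 higher (median 0.38), and 3 of 7 without the 12 (0.14). Other splicing regulators had 17 of 32 higher and 2 lower (median 0.17), then 9 higher and 2 lower (0.12). Spliceosome components had 12 of 34 higher and 2 lower, with a median of 0.01, then 5 higher and 0 lower by edgeR without the 12 (2 lower at an unadjusted p under 0.05, median -0.0058). The hnRNP proteins had 7 of 23 higher and 4 lower (0.02), then 1 higher and 2 lower (-0.06). The median over all genes tested was -0.02 with all 40 and 0.0016 without the 12. It varied with transcript length and GC content, in 5 bins of each. Without the 12 it was 0.13 in the longest bin and -0.05 in the second shortest. By GC it was 0.085 in the lowest bin and -0.083 in the highest. With all 40 the longest bin had -0.04, and the lowest and highest GC bins -0.04 and -0.0053. The part of length and GC in the list values was not tested.

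Among SR proteins, Srsf11, which binds exon enhancers (chromosome 3, 157716110 to 157742310), ran from 32.4 to 62 CPM with a median of 42.2 in the first run and from 54.1 to 92.8 with a median of 71.8 in the second. Its log2 difference was 0.65 ± 0.07 (adjusted p = 2.55e-08), and 0.37 without the 12 (adjusted p = 0.00511). The values overlapped only between 54.1 and 62 CPM. Srrm2, a large scaffold of nuclear speckles, was 0.79 ± 0.09 higher and 0.49 without the 12. Son, another speckle scaffold, went the other way in size, from 0.43 ± 0.05 to 0.56 without the 12 (adjusted p = 0.000348). Srsf5 shows the opposite case: it ran from 75.9 to 138 CPM in the 12, from 180 to 229 in the other 8 and from 165 to 271 in the second run. Its difference of 0.56 ± 0.12 (adjusted p = 0.000602) was -0.01 ± 0.06 without the 12 (adjusted p = 0.93).

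The kinases of SR proteins followed the 12 in large part. Clk1 (chromosome 1, 58449348 to 58463234) lay at 25.2 to 43 CPM in the 12, 65.5 to 94.3 in the other 8 and 73 to 124 in the second run. It was 0.98 ± 0.15 higher with all 40 (adjusted p = 6.71e-06) and 0.27 ± 0.08 without the 12 (adjusted p = 0.0288). Clk4 went from 0.82 ± 0.12 to 0.29 ± 0.08 (adjusted p = 0.0169). Srpk1, which phosphorylates SR proteins in the cytosol, changed less, from 0.36 ± 0.05 to 0.28 (adjusted p = 0.0292). All 3 kept their call in both fits, while Clk3 and Clk2 did not pass without the 12.

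Rbm25 and the LUC7-like genes had positive differences within each of the 4 conditions. Rbm25, a splicing regulator bound to the U1 particle (chromosome 12, 83678010 to 83731654), ran from 42.5 to 62.2 CPM in the first run (median 50.9) and from 58.3 to 92.8 in the second (median 74.9), a difference of 0.53 ± 0.05 (adjusted p = 1.86e-09). The 12 and the other 8 overlapped for it, at 42.5 to 62.2 and 47.4 to 60.3 CPM, and the difference without the 12 was 0.48 (adjusted p = 0.000531). Luc7l2, which helps U1 choose 5′ splice sites (chromosome 6, 38528269 to 38586722), ran from 85.4 to 151 CPM and then from 133 to 217, with differences of 0.62 ± 0.07 and 0.39 without the 12. Its relatives Luc7l3 (0.52 ± 0.06) and Luc7l (0.9 ± 0.13) were also higher in both fits. The splicing factor Sf3b1, the branch-site subunit of U2, was 0.3 ± 0.04 higher and 0.34 without the 12. Ddx17, an RNA helicase, was 0.69 ± 0.08 and 0.41 higher, Tial1 0.49 ± 0.05 and 0.25, and Pnisr, a speckle protein, 0.96 ± 0.12 and 0.46, all called both ways. Hnrnph1 was 0.47 ± 0.06 and 0.21 higher, whereas Hnrnpab was lower in both fits, at -0.25 ± 0.05 and -0.26. Hnrnpl (0.33 ± 0.07) had 0.00 without the 12, and Hnrnpdl (0.29 ± 0.07) had 0.02.

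**Figure D2:**
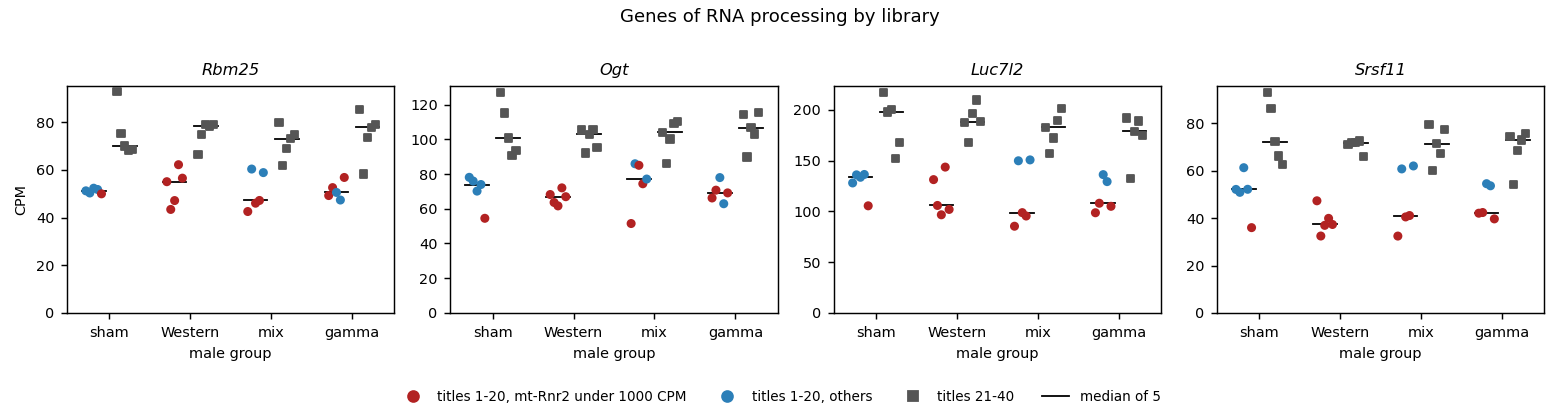
CPM of 4 genes in each male library by condition, on linear axes from 0, with circles for title numbers 1 to 20, squares for 21 to 40 and bars for medians of 5. In Rbm25 and Ogt the libraries in red and blue share 1 range, below every square in Ogt and overlapping the lowest squares in Rbm25, while in Luc7l2 and Srsf11 the red ones lie lowest.

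The run difference was also fitted within each condition, with 5 libraries against 5. In the Western condition, where all 5 first-run libraries were among the 12, 858 genes were higher and 544 lower. In sham, where 1 of 5 was, 131 were higher and 123 lower. The mix gave 54 and 36, and gamma 119 and 42, with 3 of the 12 in each. The median over the 15 SR proteins was 0.68 in Western, 0.44 in gamma, 0.4 in mix and 0.26 in sham. Clk1 differed by 1.57 in Western and 0.55 in sham, and mt-Rnr2 by 4.33 and 0.34. A test of whether the run difference varied between conditions called 4 genes of 15848 (0.0252%), with 1144 at an unadjusted p under 0.05, and voom called 1. One of the 4 was Kcnq1ot1, a nuclear antisense RNA of an imprinted domain, at 0.57 in sham, -1.24 in Western, 0.81 in mix and -0.34 in gamma (adjusted p = 0.0454); the others were predicted genes. So few calls do not show that the conditions were alike.

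Nuclear noncoding RNAs had 8 of 18 members higher and none lower, with a median of 0.35, and 3 of 19 higher and 1 lower without the 12, beside 13.7% and 13.8% and then 5.63% and 3.35% of all genes. Neat1, the RNA scaffold of paraspeckles (chromosome 19, 5874736 to 5897132), lay at 133 to 483 CPM in the 12, 625 to 1069 in the other 8 and 648 to 1404 in the second run. It was 1.09 ± 0.22 higher with all 40 (adjusted p = 0.000304) and 0.18 ± 0.12 without the 12 (adjusted p = 0.37). Malat1, a speckle RNA, had 0.38 ± 0.15 (adjusted p = 0.0536) and 0.54 ± 0.15 without the 12 (adjusted p = 0.0236). Replication histones, whose mRNAs end without a poly-A tail, had 1 of 22 higher and 3 lower, the latter near the 13.8% of all genes. H4c4 was lower (-1.69 ± 0.36) and had 0.00 without the 12.

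**Figure D3:**
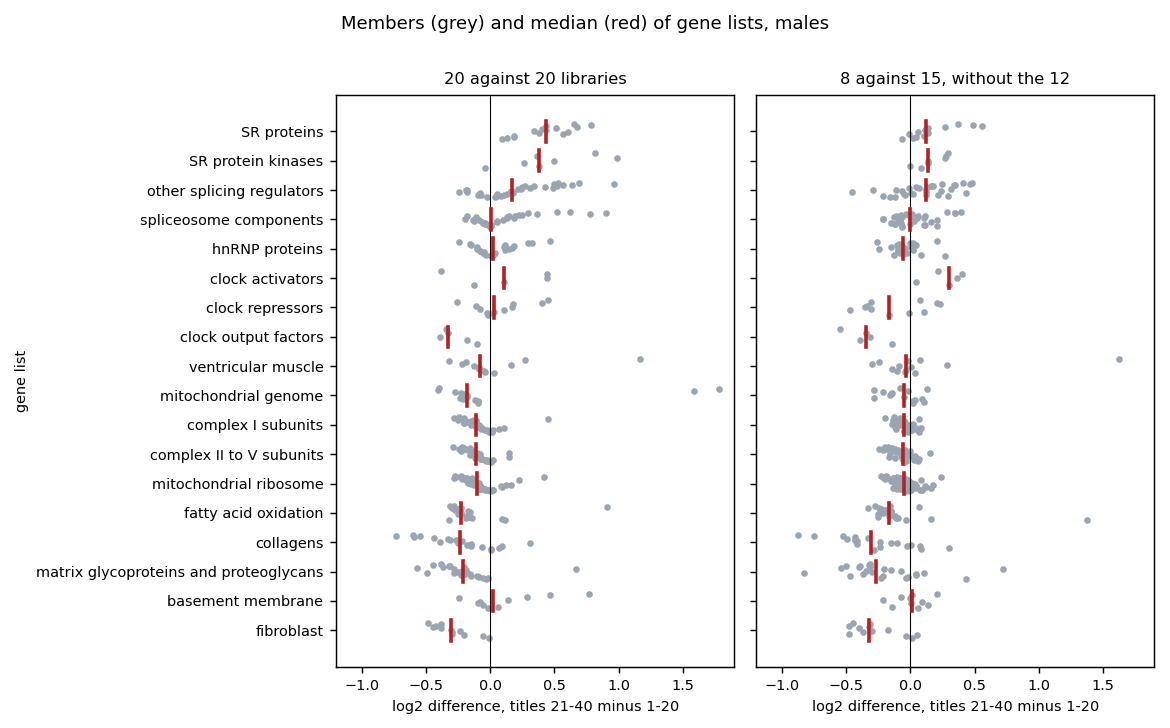
Log2 differences between the runs (titles 21 to 40 minus 1 to 20) for every tested member of 18 lists (grey) and the median of each list (red), with all 40 male libraries on the left and without the 12 on the right. SR proteins move from a median of 0.43 to 0.12, while collagens and clock output factors stay below 0 on both sides, at -0.23 and -0.31 and at -0.33 and -0.35.

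Clock genes differed in part. Output factors had 4 of 5 members lower (median -0.33), while activators had 1 higher and 1 lower of 5 and repressors 2 higher and 1 lower of 11, beside 13.7% higher and 13.8% lower of all genes. Without the 12 the output factors had 2 of 5 lower, the activators 1 of 5 higher and the repressors 3 of 11 lower, beside 5.63% higher and 3.35% lower. Within conditions the output factors had medians of -0.43 in sham, -0.32 in gamma and -0.22 in Western. In the mix their median was 0.01, and 4 of 5 values were positive. Dbp, a PAR-domain factor driven directly by the clock (chromosome 7, 45354512 to 45359627), ran from 66.6 to 165 CPM with a median of 124 in the first run and from 47 to 158 with a median of 84 in the second. The values overlapped, with 3 of 20 second-run libraries above the first-run median. The difference was -0.35 ± 0.1 (adjusted p = 0.00673), and -0.54 ± 0.12 without the 12 (adjusted p = 0.007). Its relative Hlf had -0.39 ± 0.13, and the cell-cycle kinase Wee1 -0.33 ± 0.1. Neither passed without the 12, at -0.31 and -0.35. The deubiquitinase Usp2 had -0.18 ± 0.06 and -0.39 (adjusted p = 0.0037); its call with all 40 ended when any of 20 libraries was left out. Tef, the remaining output factor, had -0.1 ± 0.07 (adjusted p = 0.242).

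Of the repressors, Per2 (0.45 ± 0.12) and Per3 (0.41 ± 0.11) were higher with all 40 and had 0.07 and 0.2 without the 12, while Bhlhe41 was lower both ways (-0.26 ± 0.07 and -0.31). Nr1d1, a repressor of Bmal1, was called only without the 12, at -0.33 ± 0.09 (adjusted p = 0.0162), as was Cry2 at -0.31. Of the activators, Npas2 had 0.44 ± 0.17 (adjusted p = 0.0493, lost without any of 20 libraries) and Bmal1 0.44 ± 0.2 (adjusted p = 0.0897), with first-run values from 0.862 to 12.7 CPM. Rora had -0.38 ± 0.1 with all 40 and 0.22 without the 12 (adjusted p = 0.0734). Clock itself was called only without the 12, at 0.3 ± 0.07 (adjusted p = 0.0122). The hour of collection is not given, and its part in these values was not tested.

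The same contrast of titles in the 40 female libraries gave the output factors and Bmal1 in the other direction, but not all clock genes. All 5 output factors were higher in the second run of females, beside 12% of all genes tested in females. The differences were 0.83 for Dbp, 0.68 for Wee1, 0.6 for Hlf, 0.43 for Tef and 0.37 for Usp2. Bmal1 was lower there, at -1.11 (adjusted p = 1.69e-05). The difference between the sexes passed its own test for Dbp (male minus female -1.17, adjusted p = 1.42e-06), Hlf (-0.98, adjusted p = 4.01e-05), Tef (-0.52) and Bmal1 (1.55, adjusted p = 1.52e-05). It did not for Per2 (-0.13, adjusted p = 0.661) and Per3 (-0.06, adjusted p = 0.842), which were higher in the second run of both sexes. Of 11 repressors edgeR called 5 higher and 0 lower in females (0 lower at an unadjusted p under 0.05). Of all genes there, 12% were higher and 12.9% lower. The repressor median was 0.25 in females and 0.03 in males.

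**Figure D4:**
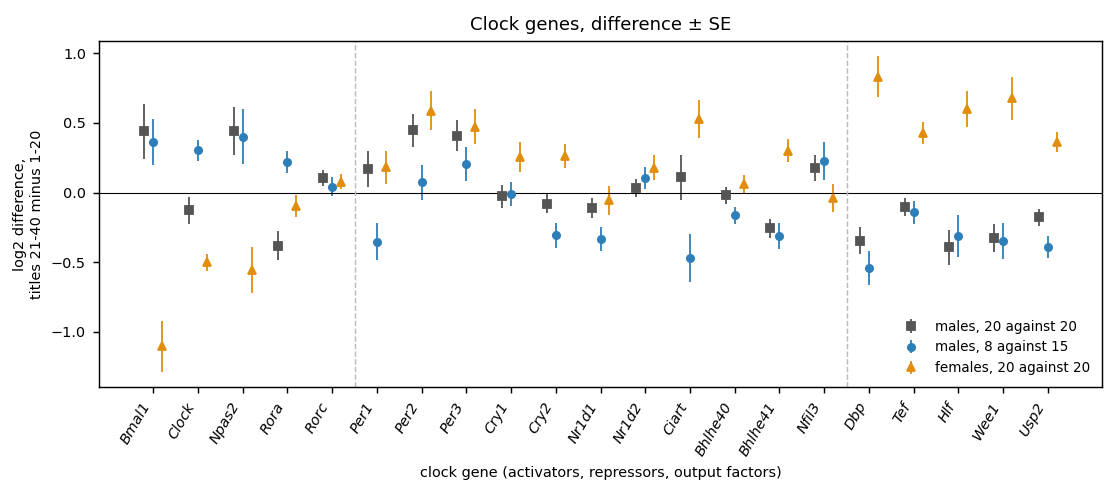
Log2 differences between the runs with their standard errors for 21 clock genes, in males with all 40 libraries, in males without the 12, and in females; dashed lines part activators, repressors and output factors. Output factors lie below 0 in males and above 0 in females, and Bmal1 the reverse.

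Promoters were searched for the E-box CACGTG, which BMAL1 and CLOCK bind, and the D-box TTATGTAA, which Dbp, Tef and Hlf bind, on either strand, in 300 bases from 250 before to 50 after each RefSeq start on GRCm38.p6. Of the clock genes 16 had such a promoter, and Bmal1, Per2 and Wee1 were not among them. Of the 16, 5 held the E-box and 1 the D-box in any of their promoters. Over all 32851 promoters, which belong to 27025 genes, the shares were 7.15% and 0.938%. These shares are per promoter and the clock counts per gene, so they are not like for like. Of the 4 output factors with a promoter, Tef alone held the E-box, and Dbp, Hlf and Usp2 had neither set of letters in this window. The windows below show the matches in capitals, 5′ to 3′ on the strand of the gene, for Tef, for Bhlhe41, which was lower in both fits, and for the first of the 2 matches in Per3. They lie at chr15:81802526-81802571 (plus), chr6:145865548-145865593 (minus) and chr4:151044843-151044890 (minus).
Tef: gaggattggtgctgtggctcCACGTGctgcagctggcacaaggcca
Bhlhe41: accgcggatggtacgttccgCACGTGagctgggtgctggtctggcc
Per3: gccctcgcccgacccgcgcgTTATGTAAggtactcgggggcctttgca
A match is a description of these letters only.

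Atrial genes were present in most first-run libraries and in few of the second. Myl7, the atrial myosin light chain (chromosome 11, 5845449 to 5848792), was over 10 CPM in 17 of 20 first-run libraries and in 3 of 20 second-run libraries. It ran from 0.0589 to 242 CPM with a median of 52.9 in the first run and from 0 to 627 with a median of 0.161 in the second. By condition it was over 10 CPM in 5 of 5 first-run sham, Western and gamma libraries and in 2 of 5 of the mix, against 1, 0, 1 and 1 of 5 in the second run. Among the 12 it was over 10 CPM in 10 libraries, and among the other 8 in 7. Myl4, the other atrial light chain, had medians of 82.6 and 2.36 CPM, and Sln, the atrial inhibitor of the calcium pump, 19.2 and 0. The runs overlapped on both sides. Sham replicate 6, mix replicate 8 and gamma replicate 10 of the second run were high, with mix replicate 8 at 627 CPM of Myl7, and the first-run mix libraries were low, with replicate 5 at 0.0589 CPM of Myl7 and 0 of Sln. The fitted differences of Myl7 (-2.29 ± 1.1, adjusted p = 0.116), Myl4 (-2.22 ± 1.02, adjusted p = 0.0994) and Sln (-1.81 ± 1.03, adjusted p = 0.19) did not pass edgeR's test. These calls depended on the tool. With voom the values were -6.63 for Myl7 (adjusted p = 0.000117), -4.34 for Myl4 (adjusted p = 2.02e-06) and -6.43 for Sln (adjusted p = 0.00051). With DESeq2 they were -2.63 for Myl7 (adjusted p = 0.0287), -2.34 for Myl4 (adjusted p = 0.00905) and -2.23 for Sln (adjusted p = 0.138).

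Over the atrial list without Nppa, the summed level was 563 ± 367 CPM (SD, n = 20) in the first run and 360 ± 527 in the second. The difference of means did not pass a two-sided permutation test within conditions (adjusted p = 0.194 over 6 measures), while that of mean log2 values did (-0.91, adjusted p = 0.00771). Without the 12 the means were 620 ± 396 (n = 8) and 414 ± 603 (n = 15, exact permutation test, adjusted p = 0.449). In the gene-wise fit by edgeR the list of 16 had 1 member higher and 2 lower (median -0.42), beside 13.7% and 13.8% of all genes. DESeq2 called 0 higher (0 at an unadjusted p under 0.05) and 4 lower, and voom 0 higher (1 unadjusted) and 10 lower with a median of -0.72. Within conditions the median was -0.66 in sham, -1.14 in Western and -1.03 in gamma, but 1.82 in the mix, where 14 of 16 values were positive. Kcnj5, a potassium channel subunit, was lower (-0.35 ± 0.09, adjusted p = 0.00496), as was Hamp, the hepcidin gene (-1.92 ± 0.67, adjusted p = 0.0282); neither passed without the 12. The call of Hamp with all 40 also ended without sham replicate 2 (adjusted p = 0.0651), Western replicate 1 (0.0606) or gamma replicate 2 (0.061), each left out alone. Bmp10, an atrial growth factor, had 2.81 ± 0.8 (adjusted p = 0.00757), but sham replicate 6 held 150 CPM of it and no other library was above 1.45. Without that library its value was 0.95 (adjusted p = 0.0135). Reads in bulk tissue cannot tell more atrial cells from more atrial RNA per cell, and this holds for each cell type below.

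**Figure D5:**
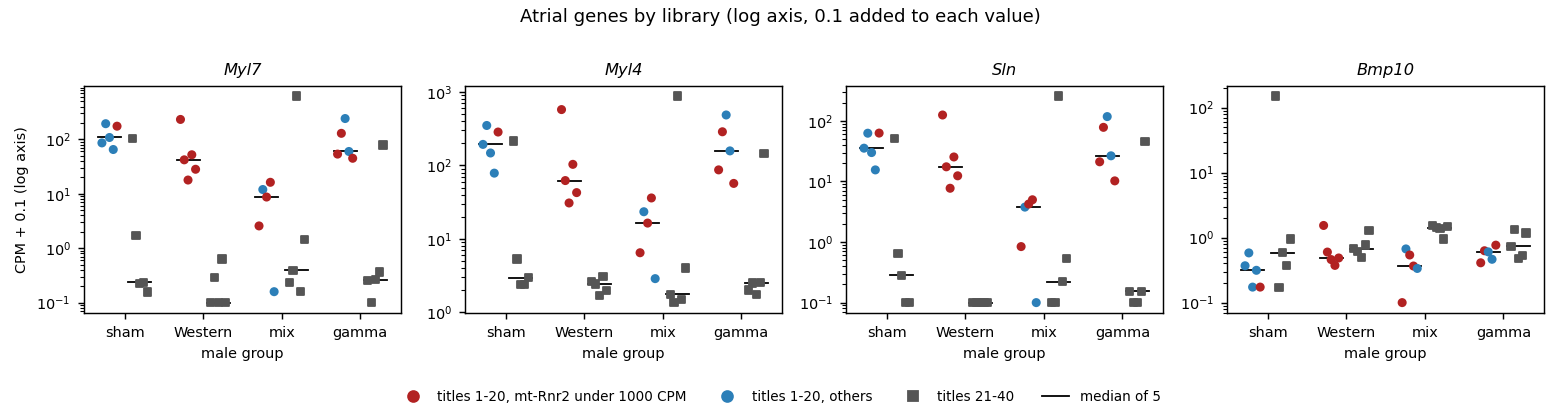
CPM of 4 atrial genes in each male library on a log axis, with 0.1 added to every value so that zeros can be drawn; circles are title numbers 1 to 20, squares 21 to 40, bars medians of 5. Most circles lie far above most squares in Myl7, Myl4 and Sln, except 3 squares, while in Bmp10 a single square at 150 CPM stands alone.

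Of 13 ventricular muscle genes 2 were higher and 2 lower, with a median of -0.08; both counts are near the 13.7% and 13.8% of all genes. Without the 12 edgeR called 1 higher and 0 lower (1 lower at an unadjusted p under 0.05). Myh7, the slow myosin heavy chain that returns in the stressed mouse heart (chromosome 14, 55208141 to 55232084), ran from 102 to 1446 CPM with a median of 300.1 in the first run and from 312 to 2098 with a median of 744 in the second. All 20 second-run libraries lay above the first-run median. The difference was 1.17 ± 0.25 (adjusted p = 0.000536) and 1.62 ± 0.3 without the 12 (adjusted p = 0.00213). Nppb, which encodes the natriuretic peptide BNP, had 0.67 ± 0.21 and 0.96 ± 0.25 and was called both ways, though not without Western replicate 7 of the second run (0.49, adjusted p = 0.0638 with the other 39). Myh6, the main adult heavy chain, was 0.27 ± 0.08 higher with all 40 and had 0.08 without the 12. Ryr2, the calcium release channel, had -0.32 ± 0.1 and -0.02. In females Myh7 had 0.03 (adjusted p = 0.942), and the difference between the sexes was 1.15 (adjusted p = 0.00952).

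Of 214 mitochondrial genes tested, 60 were lower in the second run with all 40 libraries and 5 higher, beside 13.8% and 13.7% of all genes, and without the 12 the counts were 1 and 1. Fatty acid oxidation had 15 of 23 lower and 1 higher with a median of -0.22; without the 12 the median was -0.17, and edgeR called 0 lower (13 at an unadjusted p under 0.05). Hadh (-0.31 ± 0.07, adjusted p = 0.000902), a beta-oxidation dehydrogenase, had -0.28 without the 12 (adjusted p = 0.0561), and Acads (-0.28 ± 0.05) had -0.16. The 1 higher member was Cpt1b, the muscle enzyme of fatty acid import into mitochondria, at 1.29 to 4.1 CPM in the 12, 5.84 to 8.94 in the other 8 and 3.45 to 12 in the second run. It went from 0.91 ± 0.21 to 0.07.

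The respiratory chain and the mitochondrial ribosome moved little in size. Complex I had 6 of 36 lower and 1 higher (median -0.11), and complexes II to V 12 of 44 lower (-0.11). The mitochondrial ribosome had 18 of 78 lower and 1 higher (-0.11). Of all genes 13.8% were lower and 13.7% higher, and the lower count of complex I is near that share. Uqcrc2 of complex III had -0.29 ± 0.05 and the ribosomal protein Mrpl39 -0.22 ± 0.04. Without the 12 the 3 medians were -0.05, -0.06 and -0.05. In that fit edgeR called 0, 0 and 1 lower (3, 6 and 6 at an unadjusted p under 0.05). Of 15 genes of the mitochondrial genome 2 were higher, both ribosomal RNAs, and 6 lower, among them mt-Nd6 (-0.4 ± 0.1) and mt-Nd5 (-0.41 ± 0.11). The 2 higher are near the 13.7% of all genes. edgeR called 0 of the 15 without the 12, and 0 had an unadjusted p under 0.05. The share of all counts on mitochondrial genes was 23.6 ± 2.61% in the first run and 21.8 ± 2.32% in the second (n = 20 each, two-sided permutation test, adjusted p = 0.0616). The same share on the log2 scale passed, at -0.11 (adjusted p = 0.0435 by the same test).

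Of 80 matrix genes tested, 24 were lower in the second run and 6 higher, beside 13.8% and 13.7% of all genes. Without the 12 the counts were 18 and 1, beside 3.35% and 5.63%. Collagens had 7 of 20 lower (median -0.23), and 9 of 20 without the 12 (-0.31). With mt-Rnr2 as a term 1 of 20 was called, at a median of -0.23. Within conditions the collagen median was -0.51 in the mix, -0.27 in gamma, -0.19 in Western and -0.01 in sham, where 9 of 20 values were positive. That of matrix processing genes was -0.21 in the mix and 0.04 in sham. Col1a2, a chain of type I collagen (chromosome 6, 4504814 to 4541555), ran from 87.1 to 395 CPM with a median of 161 in the first run and from 65.2 to 205 with a median of 118 in the second. Its difference was -0.55 ± 0.13 (adjusted p = 0.00198) and -0.53 ± 0.11 without the 12 (adjusted p = 0.00527). Col18a1, a basement membrane collagen (chromosome 10, 76888012 to 77002390), had -0.6 ± 0.12 and -0.87 ± 0.13 (adjusted p = 0.000508). Col3a1 had -0.59 ± 0.2 (adjusted p = 0.0223), and -0.37 (adjusted p = 0.054) without mix replicate 4, which held 744 CPM.

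Glycoproteins and proteoglycans had 10 of 24 lower and 1 higher (median -0.21), beside 13.8% and 13.7% of all genes. Without the 12 they had 6 lower and 1 higher (-0.27), beside 3.35% and 5.63%. Dcn (decorin) ran from 397 to 655 CPM and then from 234 to 532, a difference of -0.38 ± 0.07 (adjusted p = 0.000108), with -0.31 ± 0.11 without the 12 (adjusted p = 0.0611). Prelp (-0.32 ± 0.09 and -0.5) and the elastic fibre protein Fbln5 (-0.31 ± 0.08 and -0.39) were lower both ways. Basement membrane genes had 3 of 10 higher and 1 lower with all 40, beside 13.7% and 13.8% of all genes. Without the 12 edgeR called 0 higher and 0 lower (0 and 1 at an unadjusted p under 0.05). Agrn, the heparan sulfate proteoglycan agrin, had 0.77 ± 0.14 and the laminin chain Lama5 0.46 ± 0.11. They had 0.21 and 0.01 without the 12. Of the processing genes, Timp2 (-0.35 ± 0.07 and -0.39) and the gelatinase Mmp2 (-0.49 ± 0.14 and -0.49) were lower both ways. Mmp2 had -0.32 without mix replicate 4.

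Fibroblasts are the main source of this matrix. Of 12 fibroblast markers 9 were lower in the second run and none higher (median -0.3), and 5 without the 12 (-0.32), beside 13.8% and 3.35% of all genes lower. Dpt led them at -0.48 ± 0.07 and -0.45. The summed level of the list ran from 1688 to 2883 CPM in the first run and from 1073 to 2214 in the second. The fibroblast receptor Pdgfra (-0.2 ± 0.09, adjusted p = 0.078) and Pi16 (-0.01 ± 0.11) did not pass. Smooth muscle and pericyte genes had 4 of 10 lower and 1 higher, with Acta2 at -0.44 ± 0.11 and -0.62, and Schwann cell genes 5 of 9 lower. Without the 12 both lists had 2 lower. Endothelial genes had 4 of 12 higher, beside 13.7% of all genes, led by Egfl7 (0.55 ± 0.13). Without the 12 edgeR called 0 endothelial genes, with 2 at an unadjusted p under 0.05. Within sham, Western and gamma 11 of the 12 were positive in each, but in the mix 3 of 12 (median -0.09). Adipocyte genes had 4 of 7 tested lower, but edgeR called 0 without the 12 (0 at an unadjusted p under 0.05, median -1.07). Adipoq, the adipocyte hormone, was over 0.5 CPM in 11 first-run and 2 second-run libraries. Of the markers of blood cells, B cell genes had 4 of 10 higher by edgeR and 1 by voom. Without the 12 edgeR called 0 of them (4 at an unadjusted p under 0.05), at a median of 0.73 beside 0.71 with all 40. Of the others, T and natural killer cell genes 0 of 8 by edgeR, DESeq2 or voom (1 at an unadjusted p under 0.05 in edgeR, 0 in the others), and the globin gene Hbb-bs had 1.17 ± 0.36, but -0.02 without the 12. The part of these cell types in the matrix values was not tested.

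Among the other lists, heat shock chaperones had 8 of 24 lower and 1 higher, beside 13.8% and 13.7% of all genes, and 1 lower without the 12. Hspb7, a small heat shock protein of muscle, ran from 2104 to 4003 CPM in the first run and from 1288 to 3582 in the second (-0.55 ± 0.09, adjusted p = 1.48e-05, with -0.31 ± 0.13 and adjusted p = 0.148 without the 12). Hypoxia targets had 2 of 13 higher, near the 13.7% of all genes, and 4 of 13 values were positive (median -0.02). Vegfa, 1 of the 2, had 0.7 ± 0.11 and 0.16 without the 12. Interferon genes had 3 of 22 higher, a share like that of all genes, and 1 without the 12. Cytosolic ribosomal proteins had 1 of 84 higher and 2 lower, and immediate early genes 0 of 24 either way by edgeR, DESeq2 or voom (2, 2 and 0 at an unadjusted p under 0.05).

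The same titles in females, 20 against 20, gave 1918 genes higher (12%) and 2054 lower (12.9%) of 15931. Of 4318 genes called in males and tested in females, 2402 had the same sign there (55.6%), 654 were called the same way and 482 the opposite way. The difference between the sexes passed the test for 4209 of 16688 genes (25.2%). In the second run of females Rn18s-rs5 was lower (-2.52, adjusted p = 1.96e-10) while it was higher in that of males, and Lars2 likewise (-1.9 in females). Rn7sk was lower in both, at -2.41 in females, where its median went from 13 to 2.28 CPM. In males the fall of Rn7sk did not pass without the 12, nor did the rises of Rn18s-rs5 and Lars2. Of the female libraries 1 was under 1000 CPM of mt-Rnr2, and 1 had Xist at the male level. Hipk2 had a median of 84 CPM in the first run of females and 13.4 in the second. The mt-Rnr2 medians there were 6220 and 4750 CPM, so high Hipk2 also occurred without low mt-Rnr2. SR proteins had 2 of 15 higher in females (median 0.07) and SR protein kinases 3 of 7 higher and 1 lower. Collagens had 4 of 20 lower, and of 12 fibroblast markers edgeR called 1 higher and 0 lower (1 lower at an unadjusted p under 0.05). Myl7 did not exceed 0.448 CPM in any female library.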

How the data were processed

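The authors deposited raw counts per Ensembl gene, in whole numbers, for 56941 genes. Per the labels' protocols, libraries were poly-A selected. The submitters' processing notes name STAR 2.7.8a, FastQC 0.11.9 and the GRCm39 build. How reads were counted, with which annotation and whether by strand is not given in the sources used here. Overlapping or antisense genes and near-identical copies (Rn18s-rs5, globins, histones) are therefore uncertain. GENCODE vM39 gave names for 56323 genes.

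edgeR 4.0.16 (R 4.3.3) was run with TMM normalization, filterByExpr on the 8 cells of condition and run, and terms for condition and run; genes with an adjusted p under 0.05 were called. The 15848 genes kept held at least 99.8% of each library's counts; the common dispersion gave a coefficient of variation of 19.9%. SE is the log2 difference divided by the square root of F. Females and the difference between the sexes were fitted likewise. Library measures were tested by permuting runs within conditions (100000 resamples, or exact). limma 3.58.1 (voom) and DESeq2 1.42.0 were alternatives.

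The members and gene lists were chosen with earlier results of these data known. Named genes are, of those called with a mean of at least 5 CPM, the 12 that rose and the 12 that fell most, without predicted genes and pseudogenes, and up to 4 genes of smallest p in each splicing, clock, atrial, mitochondrial and matrix list and 2 in the others; other members were named after their values were seen, to show counts or the libraries that stood apart. Leaving out the 12 libraries and using mt-Rnr2 as a term were chosen after the data were seen.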

Additional observations from a re-analysis of the deposited data

Results flagged for a closer look

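Within the groups of 10 male libraries, which hold both runs, single libraries lay far from the rest for some values. Chance alone would flag about 1 in 20 groups of like libraries, and 64 were examined. Each of these groups mixes both runs, which differed, so that rate does not hold for them. Sham replicate 5 held 110.3 CPM of Rn7sk and 79.62 CPM of Srsf5, in both cases apart from the other 9 sham libraries. It was the only sham library among the 12 described above. Western replicate 1 held 232.8 CPM of Myl7 and 124.7 of Sln, and mix replicate 8 held 626.8 and 256.5. Sham replicate 6 held 150.3 CPM of Bmp10 and 2098 of Myh7. For Col3a1, sham replicate 9 was high at 355.4 CPM and mix replicate 4 at 744.5.

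The run differences with the smallest p between the sexes (male minus female, log2, edgeR) were 2.31 for Malat1, 3.91 for Rn18s-rs5, 3.54 for Lars2, 2.28 for Lncpint, a noncoding RNA, 2.04 for Gpr17, 3.34 for Rgs9, -0.46 for Rnf187 and -0.86 for Hspb7. In the same fit Malat1 was at 0.4 ± 0.16 in males and -1.91 in females. The run difference varied between conditions for Kcnq1ot1 (adjusted p = 0.0454 by edgeR) and the predicted genes Gm43359 (0.0258), Gm43361 (0.000348) and Gm48958 (0.0267).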

How the results depend on the processing

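The male count of 4365 calls was 4125 with RLE size factors (2346 higher, 1779 lower), 4390 with DESeq2, 4519 with voom, 3953 with no filter (2363 higher, 1590 lower), 4282 without the mitochondrial genome, 4668 with all 80 libraries in 1 fit, 3095 with Myl7 as a term and 4349 with no term for condition, and ran from 3737 to 4842 over 40 fits that each left out 1 library. It was 929 with the Rn18s-rs5 share as a term, 2477 without the Western condition, 1479 without the 12 libraries, 1459 with mt-Rnr2 as a term, and 254, 1402, 90 and 161 within sham, Western, mix and gamma alone. Without libraries over 10 CPM of Myl7, 3 first-run and 4 second-run libraries remained, all of the mix, and edgeR called 0 (1097 unadjusted). Females gave 3880 without the library at the male level of Xist and 3667 without the library under 1000 CPM of mt-Rnr2, beside 3972. The difference between the sexes, 4209 calls, was 4184, 4407 (voom), 3990 without the mt-Rnr2-low libraries and 4167 with the title number as a replicate block; the numbers were not taken as pairs, since same-numbered libraries of the sexes correlated by -0.22 to 0.21 over 40 pairs. The 4 calls between conditions were 1 with voom and 1 to 9 over the fits without 1 library.

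Of 127 named genes called with all 40 libraries, 112 kept their call in every fit without 1 library, and 23 changed sign in another setting. Without the 12 these were mt-Rnr1 (-0.017), Hbb-bs (-0.017), Lcor (0.47), Hipk2 (0.75), Zbtb37 (0.93), Sgcd (0.16), Tnrc6b (0.22), Sema5a (0.048), Hnrnpl (-0.0015), Rora (0.22), Hspg2 (-0.075) and H4c4 (0.0011). With mt-Rnr2 as a term they were mt-Rnr2 (-0.061), mt-Rnr1 (-0.17), Lcor (0.38), Hipk2 (0.74), Zbtb37 (0.89), Sgcd (0.14), Tnrc6b (0.22), Hnrnpl (-0.0079), Rora (0.21), Ryr2 (0.018), Lama5 (-0.0022), Hspg2 (-0.091), Rpl7l1 (0.00072), H4c4 (0.018) and Egfl7 (-0.0057). With the Rn18s-rs5 share as a term they were Rn18s-rs5 (-0.048), Hipk2 (0.12), Zbtb37 (0.51), Tnrc6b (0.034), Rora (0.13), Hspg2 (-0.095) and Egfl7 (-0.0035). Without libraries over 10 CPM of Myl7 they were Gimap3 (-0.17), Usp2 (0.104), Prelp (0.12) and Oasl2 (-0.31), and with Myl7 as a term Hamp (0.22). A gene fitted with its own level as a term must lose its difference, which holds for mt-Rnr2 and Rn18s-rs5 in these fits. Otherwise, apart from the libraries left out, the cause was not tested. The 8 first-run libraries outside the 12 limit the precision of the smaller fit.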
